A study of Mus musculus with 8 samples.

Results

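Interferon response genes are switched on when a cell senses viral nucleic acid or an interferon, and the genes of antigen processing that travel with them cut and carry peptides for display on MHC class I molecules. A list of 35 mouse genes of both kinds was read by name in the pancreas of Glis3KO2 and WT pups. GLIS3 is a transcription factor of the Krüppel-like zinc finger family that pancreatic beta cells need for insulin expression. Of the 35 genes, 31 had a probe under that name on the array, and 30 had one whose signal cleared background by the scanner software's test on 4 or more of the 8 arrays. These 30 are the members tested here, each by its brightest probe, out of 33239 probes tested in all.

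The WT group held 4 samples of whole pancreas from wild-type C57BL/6 mice aged 1 week, and the Glis3KO2 group held 4 from C57BL/6 mice of the same age carrying the Glis3KO2 genotype. The labels do not say which part of Glis3 was removed, whether every cell of the mouse carries the change, or which litters the pups came from. Total RNA labelled with the dye Cy3 was hybridised to Agilent mouse genome arrays with 1 channel, 1 sample per array. Nothing in the labels says how many animals gave each RNA, and p-values reflect how much these samples vary, which may be technical. Going by how the files are numbered, each genotype is likely to have filled 1 slide of 4 arrays. The effects of slide and genotype then cannot be told apart.

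Levels are on a log2 scale on which 0 is the signal of a probe at the 75th percentile of its own array. They were compared between genotypes and never between probes, since probes differ in brightness. The Glis3 probe was well above background on 3 of 4 WT arrays and on 0 of 4 Glis3KO2 arrays, too few for it to be tested. Its means were -5.58 in WT and -6.15 in Glis3KO2. The groups overlapped, with WT replicate 1 at -6.06 and Glis3KO2 replicate 3 at -5.93. Whether the probe lies in the removed part is not known. Acinar genes marked every array as pancreas. Cela1, a digestive elastase, had levels of 8.45 to 8.93 in WT and 8.42 to 8.72 in Glis3KO2. Of 10 listed beta-cell genes, 9 were lower in Glis3KO2 and 7 passed the threshold in limma, against 0.256% of all probes. Among the 7 was Ins2, an insulin gene, at a log2 difference of -3.70 (SE 0.22, adjusted p = 0.000536). Iapp, on the same list, was higher in Glis3KO2, at 0.45 (SE 0.27, adjusted p = 0.688). In whole tissue, fewer cells of a type and less RNA per cell cannot be told apart. Xist, the RNA of the inactive X chromosome, was at 1.24 to 1.63 on WT replicate 4 and Glis3KO2 replicates 1, 3 and 4 and between -6.81 and -6.06 on the other 4 arrays, so both groups held arrays of both kinds.

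Type I interferons signal through a transcription factor complex holding STAT2 and IRF9 that binds the interferon-stimulated response element, ISRE. Interferon gamma acts on its targets through the gamma-activated site, GAS. Among the targets are RNA sensors that detect viral RNA, effectors that block viral replication, GTPases that attack intracellular pathogens, and the immunoproteasome and TAP transporter that supply peptides to class I molecules. Without infection these genes are kept at a low basal level, and several of them are most active in immune cells.

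RefSeq promoters, 250 bases before to 50 after each start on build GRCm38.p6, were held for 28 of the 35 members. The core of the ISRE, which is GAAA, any 2 letters and GAAA, was searched on both strands and occurred in 13 of these 28 promoters, against 3.99% of 27025 genes. The GAS letters TTCNNNGAA occurred in 9 of the 28, against 9.55% of the 27025 genes. The stretches below lie wholly before the start and read 5′ to 3′ on the gene's strand, with the matching letters in capitals and the plus-strand span beside the name. The choice of members by name did not use the letters, but it took genes of the interferon response, whose targets act through these elements. The shares are therefore not independent of how the list was chosen. A match is a description of the letters and not evidence of binding. The ISRE set covers Ifit1, Ifit3, Rsad2, Gbp2, Bst2, Stat2 and the neighbours Oas1a and Oas1g.
Ifit1 (chr19:34640760-34640819, plus strand): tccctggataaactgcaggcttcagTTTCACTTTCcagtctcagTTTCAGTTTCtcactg
Ifit3 (chr19:34583382-34583441, plus strand): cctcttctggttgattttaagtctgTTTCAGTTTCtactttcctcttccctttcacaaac
Rsad2 (chr12:26456538-26456597, minus strand): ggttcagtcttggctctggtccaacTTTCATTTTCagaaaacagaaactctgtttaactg
Gbp2 (chr3:142620579-142620638, plus strand): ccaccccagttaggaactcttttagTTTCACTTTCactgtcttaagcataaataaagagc
Bst2 (chr8:71537568-71537627, minus strand): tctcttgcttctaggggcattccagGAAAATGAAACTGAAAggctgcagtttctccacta
Stat2 (chr10:128270251-128270310, plus strand): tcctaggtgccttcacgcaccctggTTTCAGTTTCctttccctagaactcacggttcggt
Oas1a (chr5:120907526-120907585, minus strand): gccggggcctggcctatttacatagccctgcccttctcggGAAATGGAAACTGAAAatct
Oas1g (chr5:120887614-120887673, minus strand): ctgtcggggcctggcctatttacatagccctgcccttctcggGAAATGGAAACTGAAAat

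The capitals of Ifit1 mark 2 separate matches on the opposite strand, and those of Bst2, Oas1a and Oas1g mark 2 matches that overlap. Oas1a and Oas1g carried the same capital letters close to the start. Over 248 bases before the start, at the best offset without gaps, the promoters of this pair were 63.7% identical. Each gene had 1 probe, that of Oas1a well above background on 8 of 8 arrays and that of Oas1g on 0 of 8. Since probes differ in brightness, this does not compare the levels of the genes. The GAS set is shown by a pair of interferon gamma regulators and by Psmb8, an immunoproteasome subunit.
Irf1 (chr11:53769898-53769957, plus strand): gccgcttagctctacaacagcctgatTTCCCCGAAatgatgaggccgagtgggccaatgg
Irf8 (chr8:120736161-120736220, plus strand): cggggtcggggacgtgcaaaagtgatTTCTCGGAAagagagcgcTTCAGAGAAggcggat
Psmb8 (chr17:34198072-34198131, plus strand): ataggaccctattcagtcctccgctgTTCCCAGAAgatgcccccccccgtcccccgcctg

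None of the 30 members differed between genotypes at an adjusted p of 0.05 in limma with Benjamini-Hochberg adjustment over all tested probes: 0 of 30 passed, where 0.256% of the 33239 probes did, 0.174% lower and 0.0812% higher in Glis3KO2. At an unadjusted p of 0.05, 2 of 30 members passed, Ddx58 and Ifi35, both lower, against 8.97% of all probes, 5.87% lower and 3.1% higher. Over the 18716 named genes, read by 1 probe each, that share was 8.47%. The same genes were the 2 members whose 4 Glis3KO2 values all lay below the 4 WT values, against 3.35% of probes and 3.06% of named genes. No member had all Glis3KO2 values above WT, against 1.85% of probes. The log2 differences, Glis3KO2 minus WT, ran from -0.49 for Psmb8 to 0.29 for Rsad2, which is from 1.41-fold lower to 1.22-fold higher. Of the 30, 24 were below 0, against 52% of all probes and 48.2% of named genes. The median was -0.23, with quartiles of -0.29 and -0.06, against a median of -0.01 over all probes with quartiles of -0.15 and 0.11. That median rested in part on single arrays: it was -0.07 without WT replicate 4, -0.15 without Glis3KO2 replicate 4 and -0.34 without WT replicate 2. Replicate numbers are also the positions of the arrays on their slides, as the files are numbered. Between the WT and the Glis3KO2 array at positions 1 to 4, the median difference of the members was -0.02, 0.15, -0.12 and -0.72.

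**Figure D1:**
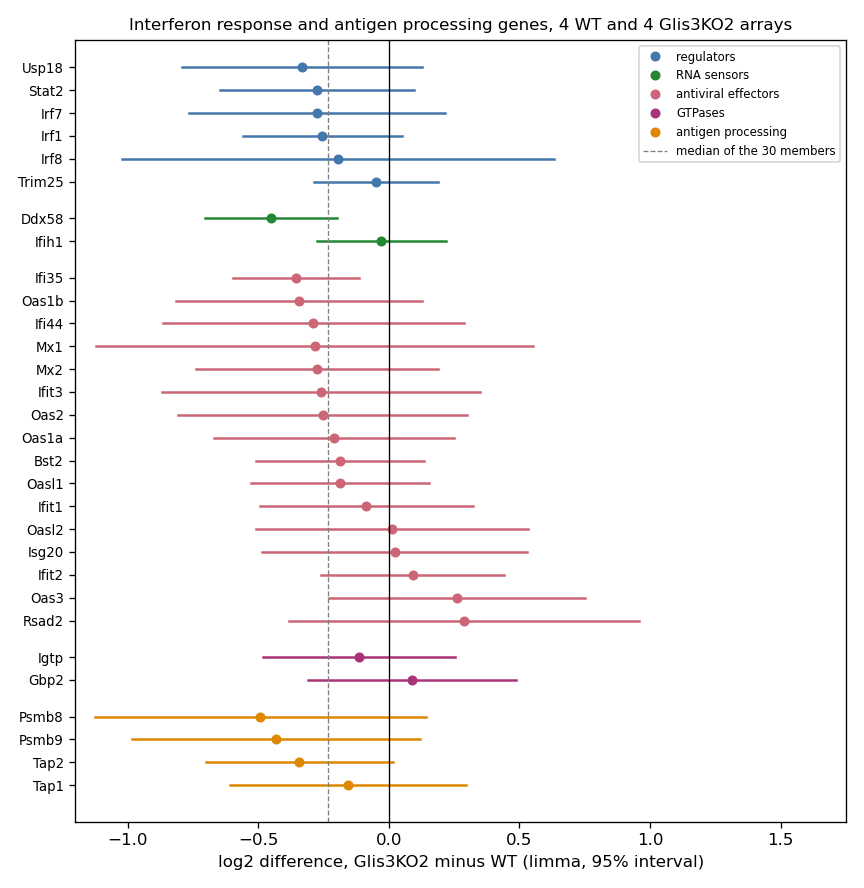
Log2 difference between 4 Glis3KO2 and 4 WT arrays for each of the 30 tested members, with its 95% interval from limma, grouped by role. The intervals of Ddx58 and Ifi35 are the 2 that lie wholly below 0 before adjustment, and the dashed line is the median of -0.23.

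The regulators were the first role. All 6 of those tested, of 7 listed, had differences below 0, with a median of -0.26, and 0 passed the test. Stat2, which joins IRF9 in the type I complex, read -0.04, -0.05, -0.04 and 0.18 on WT replicates 1 to 4. On the Glis3KO2 arrays it read 0.06, -0.09, -0.32 and -0.70. Glis3KO2 replicates 2, 3 and 4 lay below all WT arrays, replicate 2 narrowly, while replicate 1 lay among them, and the difference was -0.28 (SE 0.16, adjusted p = 0.685).

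Irf1, a transcription factor induced early by interferon gamma, had WT levels of 2.99, 2.41, 2.51 and 2.71 and Glis3KO2 levels of 2.39, 2.48, 2.40 and 2.33. WT replicates 1, 3 and 4 stood above every Glis3KO2 array, replicate 3 narrowly, and WT replicate 2 lay among them. Its difference was -0.25 (SE 0.13, adjusted p = 0.632), and its other probe gave -0.23. Irf7, which amplifies the type I response, read -3.19, -3.31, -3.32 and -2.51 in WT and -3.25, -3.03, -3.74 and -3.41 in Glis3KO2. WT replicate 4 was the highest of the 8 arrays, and the groups overlapped at a difference of -0.28 (SE 0.22, adjusted p = 0.761).

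Irf8, a factor of myeloid and B cells, is described because its spread was the widest of the members in WT, a choice made after its values were seen. WT replicates 1 to 4 read 0.95, -0.82, -0.87 and 0.14, an SD of 0.87. The Glis3KO2 arrays read -0.36, -0.27, -0.44 and -0.32, an SD of 0.07. The WT values lay on both sides of all the Glis3KO2 values, and the difference was -0.19 (SE 0.37, adjusted p = 0.922). Without WT replicate 1 it was 0.17, and the second Irf8 probe gave -0.42 with all arrays (adjusted p = 0.661). Usp18, which removes ISG15 from proteins and damps the type I receptor, had a difference of -0.33 (adjusted p = 0.689). Trim25, the ubiquitin ligase that activates RIG-I, had a difference of -0.05 (adjusted p = 0.934).

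Irf9, the DNA-binding part of the STAT complex, had no probe under that name. Through their RefSeq accession, 2 probes named Isgf3g in the files belong to it. The brighter read 0.32, 0.22, 0.54 and 0.91 in WT and 0.41, 0.44, 0.24 and 0.39 in Glis3KO2. WT replicate 4 was again highest, the groups overlapped, and the difference was -0.13 (SE 0.15, adjusted p = 0.866). The dimmer probe gave -0.20 (adjusted p = 0.760). On that probe WT replicate 2 was highest, at -3.95, and WT replicate 4 read -4.30.

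The RNA sensors gave the lowest adjusted p of the set. Ddx58 encodes RIG-I, which recognises viral RNA ends, and its brightest probe (chr4:40348348-40348407 on mm7) read -1.12, -1.23, -1.14 and -1.14 in WT. In Glis3KO2 it read -1.38, -1.56, -1.73 and -1.77. Every Glis3KO2 value was below every WT value, at a difference of -0.45 (SE 0.11, unadjusted p = 0.003, adjusted p = 0.244). The probes of the gene disagreed. The other 3 Ddx58 probes gave -0.17, -0.05 and 0.82 with groups that overlapped, and the mean over all 4 probes gave 0.04. The probe at 0.82 (SE 0.81) was well above background on 2 WT and 2 Glis3KO2 arrays, and the mean of the 3 probes above background on all 8 was -0.22.

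Ifih1 encodes MDA5, the sensor of long double-stranded RNA. Its levels were -0.80, -0.97, -0.75 and -0.80 in WT and -0.998, -0.83, -0.66 and -0.94 in Glis3KO2. The groups lay on top of each other, with a difference of -0.03 (SE 0.11, 95% interval -0.28 to 0.22, adjusted p = 0.966). Dhx58, which encodes the third sensor LGP2, was measured by a probe named D11Lgp2e in the files, at a difference of -0.19 (adjusted p = 0.726).

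Antiviral effectors were the largest role, with 16 of 18 listed genes tested. Their median difference was -0.20, 11 of 16 were below 0, and 0 passed the test. Ifi35, an interferon-induced leucine zipper protein, was measured by 1 probe (chr11:101566736-101566795 on mm7) at 0.69, 0.43, 0.35 and 0.57 in WT. The Glis3KO2 levels were 0.22, 0.22, 0.08 and 0.09. All 4 lay below the WT values, and the difference was -0.36 (SE 0.11, unadjusted p = 0.009, adjusted p = 0.364).

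The IFIT proteins bind viral RNA and stop its translation, and Ifit1, Ifit2 and Ifit3 lie within 73.6 kb of chromosome 19, 6.22 Mb from the Glis3 probe on the array's mm7 coordinates. Ifit1 read -2.97, -3.05, -2.66 and -2.26 in WT and -2.89, -2.90, -2.91 and -2.59 in Glis3KO2. Replicate 4 was the highest array in each genotype, and the difference was -0.09 (SE 0.18, adjusted p = 0.932). Ifit2 read -2.48, -2.48, -2.75 and -2.50 in WT and -2.85, -2.15, -2.38 and -2.48 in Glis3KO2. Its Glis3KO2 values spanned the WT values, at a difference of 0.09 (SE 0.15, adjusted p = 0.912), and its other probe gave -0.07. Ifit3 had a difference of -0.26 (adjusted p = 0.832), with WT replicate 4 at -0.27 and the other 3 WT arrays between -1.49 and -1.07.

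The OAS enzymes make the 2-5A messenger that activates RNase L, and 4 of them lie within 168 kb of chromosome 5. Oas2 read -3.00, -2.87, -2.37 and -1.88 in WT and -2.52, -2.73, -2.78 and -3.10 in Glis3KO2. The WT arrays covered the whole Glis3KO2 range apart from its lowest value, and the difference was -0.25 (SE 0.25, adjusted p = 0.817). Oas1b, whose coding sequence carries a premature stop in many laboratory strains, was dim, well above background on 4 WT and 2 Glis3KO2 arrays.

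Its levels were -5.23, -5.38, -5.77 and -4.98 in WT and -5.61, -6.04, -5.25 and -5.83 in Glis3KO2. The groups overlapped, at a difference of -0.34 (adjusted p = 0.689). Oas3 was well above background on 4 WT and 3 Glis3KO2 arrays, at -4.99, -5.10, -5.55 and -4.84 in WT and -4.44, -5.38, -4.81 and -4.81 in Glis3KO2. With a difference of 0.26 (SE 0.22, adjusted p = 0.776) it was on the other side of 0 from its neighbours. Oas1a had a difference of -0.21 (adjusted p = 0.817).

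The OAS-like genes Oasl1 and Oasl2 are neighbours elsewhere on chromosome 5. Oasl2 read -0.35, -0.81, -0.13 and 0.38 in WT and -0.19, -0.25, 0.01 and -0.43 in Glis3KO2. WT replicates 2 and 4 bounded all other arrays, and the difference was 0.01 (SE 0.23, adjusted p = 0.994). For Oasl1 the difference was -0.19 (adjusted p = 0.768).

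Mx1 and Mx2 are genes of the dynamin-like Mx GTPases, a family that can trap viral nucleocapsids. Whether these mice make working Mx proteins was not examined. Mx1 was dim, at -4.62, -5.95, -5.10 and -4.58 in WT and -5.34, -4.69, -5.21 and -6.16 in Glis3KO2. It was well above background on 3 WT and 4 Glis3KO2 arrays, and the groups mixed at a difference of -0.28 (SE 0.37, adjusted p = 0.877). Its 95% interval, -1.12 to 0.55, was among the widest of the set. Mx2 had a difference of -0.27 (adjusted p = 0.746).

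Rsad2 encodes viperin, which makes a chain-terminating nucleotide, and had the largest difference above 0. It read -1.95, -1.58, -0.83 and -0.92 in WT and -1.001, -1.63, -0.94 and -0.55 in Glis3KO2. WT replicates 3 and 4 stood with 3 of the Glis3KO2 arrays, and the difference was 0.29 (SE 0.30, adjusted p = 0.830). The other 2 probes gave differences of 0.05 and 0.20. Isg20, an exonuclease of single-stranded RNA, read 0.44, 0.44, 0.77 and 0.65 in WT and 0.92, -0.02, 0.44 and 1.04 in Glis3KO2. Its spread was wider in Glis3KO2 (SD 0.48) than in WT (SD 0.16), and the difference was 0.02 (adjusted p = 0.990).

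Bst2, the tetherin that holds budding virions at the surface, had a difference of -0.19 (adjusted p = 0.751). Ifi44 had a difference of -0.29 (adjusted p = 0.789), with WT replicate 4 at -2.31 and every other array between -3.61 and -3.11. The second Ifi44 probe read -1.84 on WT replicate 4 and between -4.57 and -3.06 on the other WT arrays. On the Glis3KO2 arrays it read between -4.48 and -4.17, within the WT range, at a difference of -1.15 (unadjusted p = 0.036, adjusted p = 0.516). Of the other effectors, Oas1g was not well above background on any array, and Xaf1 had no probe under its own name or through RefSeq.

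The interferon-inducible GTPases attack vacuoles of intracellular pathogens. Gbp2 read -0.09, -0.63, -0.22 and 0.25 in WT and -0.02, -0.12, 0.01 and -0.21 in Glis3KO2. The 4 Glis3KO2 values fell inside the WT range, and the difference was 0.09 (SE 0.18, adjusted p = 0.928). Igtp had a difference of -0.11 (adjusted p = 0.891). Gbp3 was measured by a probe named Gbp4 in the files, at a difference of -0.26 (adjusted p = 0.747).

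Antigen processing had the lowest median, -0.39, and all 4 genes were below 0, with 0 past the test. The 4 are not independent by position, since Psmb8, Psmb9, Tap1 and Tap2 lie within 33.1 kb of the MHC on chromosome 17 (chr17:32262147-32295269 on mm7). Psmb8 and Psmb9 encode catalytic subunits that replace the constitutive ones in the immunoproteasome. Psmb8 read 2.04, 0.80, 0.84 and 1.78 in WT and 0.92, 1.01, 0.88 and 0.67 in Glis3KO2. Psmb9 read 1.72, 0.71, 0.58 and 1.28 in WT and 0.85, 0.75, 0.53 and 0.43 in Glis3KO2. In both genes WT replicates 1 and 4 stood above all 4 Glis3KO2 arrays, while WT replicates 2 and 3 lay within or beside the Glis3KO2 range.

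The differences were -0.49 for Psmb8 (SE 0.28, adjusted p = 0.666) and -0.43 for Psmb9 (SE 0.24, adjusted p = 0.664). Without WT replicate 1 the Psmb8 difference was -0.27, and its second probe gave -0.46 with all arrays. TAP1 and TAP2 form the pump that moves peptides into the endoplasmic reticulum. Tap1 read -1.81, -2.47, -2.48 and -1.72 in WT and -2.24, -2.14, -2.21 and -2.52 in Glis3KO2. Tap2 read -0.77, -1.28, -1.16 and -0.79 in WT and -1.38, -1.09, -1.30 and -1.59 in Glis3KO2. WT replicates 1 and 4 were again the highest of the 8 arrays for both. The differences were -0.16 for Tap1 (SE 0.20, adjusted p = 0.873) and -0.34 for Tap2 (SE 0.16, adjusted p = 0.575).

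The constitutive proteasome, which cells use without interferon, is given for comparison. Of its 14 subunit genes, all tested, 0 passed the test in either direction, with a median difference of 0.08. Their SD was larger in WT for 1 of 14 genes. The largest difference was that of Psmb2, at 0.24 (adjusted p = 0.700), and the lowest that of Psmb3, at -0.02 (adjusted p = 0.980).

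**Figure D2:**
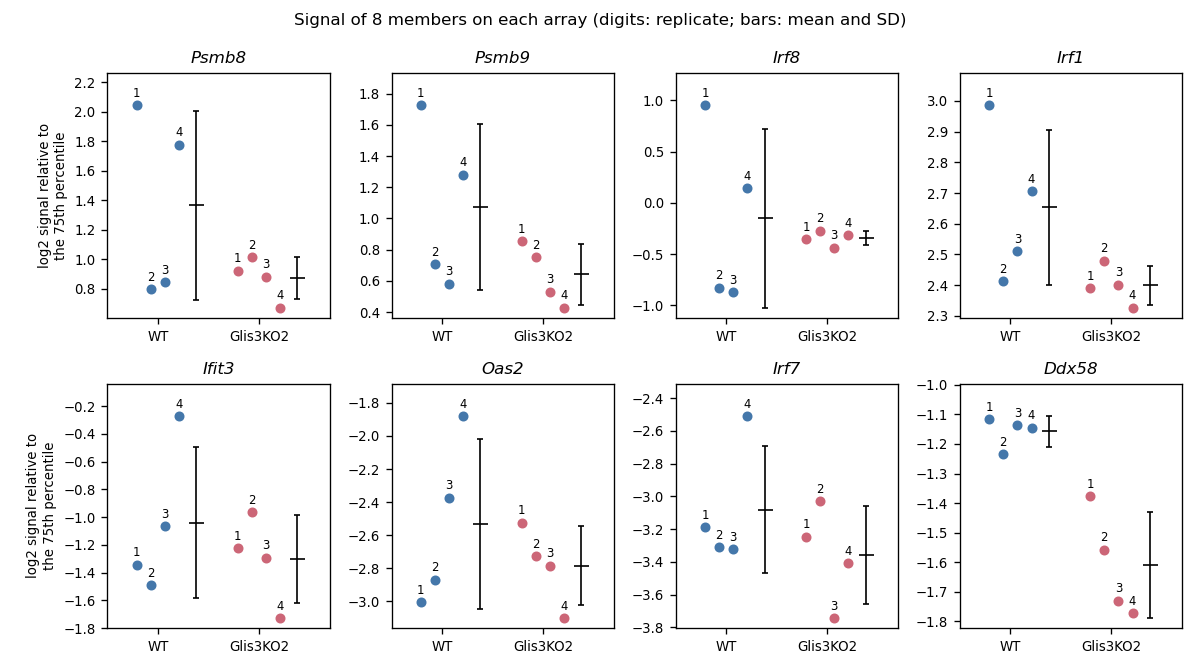
Levels (log2, 0 at the 75th percentile of the array) on each of the 4 WT and 4 Glis3KO2 arrays for 8 members, with digits giving the replicate and bars the mean and SD. Psmb8, Psmb9 and Irf8 are high on WT replicates 1 and 4, Ifit3, Oas2 and Irf7 on WT replicate 4, and Ddx58 is the panel in which the groups do not overlap.

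The members varied more among the WT arrays than among the Glis3KO2 arrays. The WT SD was the larger for 21 of 30 members, 70.0%, against 34.2% of all tested probes. The median SD of the members was 0.35 in WT and 0.20 in Glis3KO2, against 0.17 and 0.22 over all probes. Antigen processing (4 of 4 genes) and the GTPases (2 of 2) had the larger SD in WT, and the RNA sensors (0 of 2) did not. A larger WT SD was not particular to the members. It held for 22 of 30 other interferon-induced genes, 9 of 10 class II presentation genes and 7 of 7 leukocyte markers. It held for fewer of the receptors and kinases (4 of 9), endothelial markers (2 of 10), acinar genes (3 of 10) and beta-cell genes (1 of 10).

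**Figure D3:**
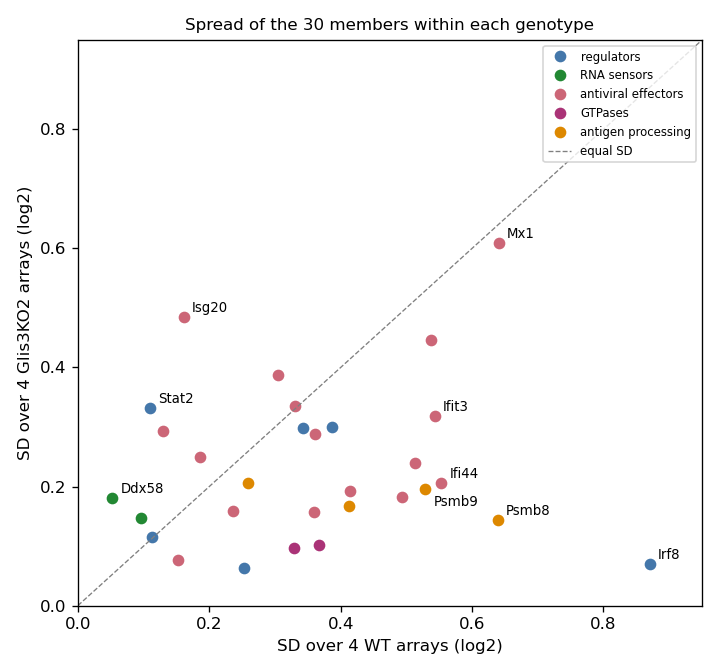
SD over the 4 WT arrays against SD over the 4 Glis3KO2 arrays, in log2 units, for each of the 30 members, coloured by role. The 21 points below the dashed line of equal SD varied more in WT, with Irf8 farthest out at 0.87 against 0.07.

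The WT spread came from both high and low arrays, and the high ones differed in part by role. WT replicate 4 was the highest of the 8 arrays for 17 of 30 members, against 12.0% of all probes, and for 11 of the 16 effectors. The median deviation of the members from their WT mean was 0.36 on that array and 0.04, -0.27 and -0.09 on WT replicates 1, 2 and 3. On Glis3KO2 replicates 1 to 4 it was -0.14, -0.13, -0.25 and -0.34. Glis3KO2 replicate 4 was the lowest of the 8 arrays for 14 of 30 members, against 20.1% of all probes, including all 4 antigen processing genes and 4 of 6 regulators. WT replicate 1 was highest for 3 of the 4 antigen processing genes and for 1 of the 16 effectors. The median deviation of antigen processing was 0.48 on WT replicate 1 and 0.31 on WT replicate 4.

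The all-leukocyte, B-cell, and T and NK cell lists were high on WT replicate 1, with median deviations of 0.94, 0.84 and 1.23. Not every marker was highest there. Among T and NK cell markers, Cd3e was highest on Glis3KO2 replicate 4 (1.23, against 0.48 on WT replicate 1). Gzma was highest on WT replicate 4 (-3.42, against -5.04). The B-cell marker Pax5 was highest on Glis3KO2 replicate 1 (-3.86, against -4.73). Ptprc, the pan-leukocyte phosphatase CD45, read 1.23 on WT replicate 1 and -1.13, -0.98 and -0.29 on WT replicates 2, 3 and 4. The Glis3KO2 arrays read -0.70, -0.77, -0.66 and -0.27. The summed signal of 7 leukocyte markers, all 7 tested, in units of each array's 75th percentile, was 25.3 on WT replicate 1 against 4.95 to 8.37 on the other WT arrays and 6.31 to 8.35 in Glis3KO2. The 7 B-cell markers, of which 6 were tested and Blk was not, summed to 5.75 on that array and to between 1.40 and 2.50 on the others. The 12 markers of T and NK cells, 11 of them tested and Ncr1 not, summed to 5.72 there and to between 2.14 and 3.61 elsewhere. The granulocyte and mast cell list did not follow these. Its 5 tested markers, of 7 listed, summed to 9.92 on WT replicate 1 and to 10.96, the highest, on Glis3KO2 replicate 4. The sums were 3.42 to 7.84 on the other WT arrays and 4.80 to 8.55 on the other Glis3KO2 arrays. Of the 5, 0 had differences below 0 and 0 passed the test, with a median of 0.33.

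Ccr7, a lymph node homing receptor on the dendritic cell list, read -0.65 on WT replicate 1 and between -5.34 and -3.73 on the other 7 arrays. The list as a whole did not follow it. Of its 7 markers 4 were tested, with Clec9a, Cd209a and Siglech near background, and their sum was 3.58 on WT replicate 1, 2.72 to 3.21 on the other WT arrays and 2.87 to 4.10 in Glis3KO2. On WT replicate 4 the leukocyte sum was 8.37 and the T and NK cell sum 2.59. Ifng, the interferon gamma gene, read -4.26 and -4.30 on WT replicates 1 and 4, -5.46 and -5.81 on WT replicates 2 and 3, and between -5.95 and -4.65 in Glis3KO2. The summed signal of 12 macrophage and monocyte markers, all tested, was 90.4 and 97.9 on WT replicates 1 and 4, 56.4 and 65.9 on WT replicates 2 and 3, and 59.4 to 83.2 in Glis3KO2. The median deviation of these 12 from their WT mean was 0.01 on WT replicate 1, 0.29 on WT replicate 4 and between -0.21 and 0.09 in Glis3KO2. Of 10 endothelial markers, all tested, 0 passed the test and 9 had differences below 0, with a median of -0.17. Flt1, a VEGF receptor, had the lowest, -0.44 (adjusted p = 0.266). Their summed signal was 40.5 to 47.6 in WT and 32.6 to 42.1 in Glis3KO2. The median deviation of the endothelial markers was highest on WT replicate 4, at 0.15, and lowest on Glis3KO2 replicate 4, at -0.45, as for the members. That of the macrophage and monocyte markers was likewise highest on WT replicate 4, at 0.29, and lowest on Glis3KO2 replicate 4, at -0.21. WT replicate 4 was also the single WT array with Xist at 1.63 and had the most probes well above background, 35631. The part of leukocyte and endothelial content, interferon gamma and Xist status in the members' levels was not tested. No marker list other than the beta-cell list had a gene past the threshold between genotypes.

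**Figure D4:**
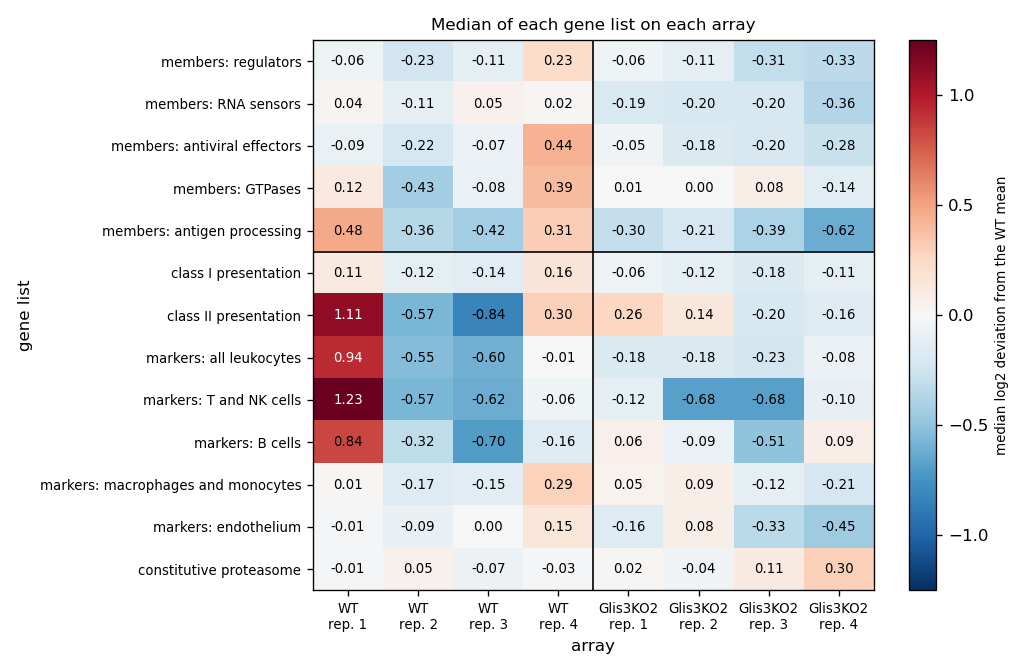
Median log2 deviation from the WT mean on each array, for the members by role and, under the line, for other gene lists. Antigen processing and the all-leukocyte, T and NK cell and B-cell lists are high on WT replicate 1. The effectors and GTPases are high on WT replicate 4, where antigen processing is also at 0.31. The constitutive proteasome is at or near 0 on the WT arrays and reaches 0.30 on Glis3KO2 replicate 4.

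Members with and without the ISRE letters were also read by array, as a description. For the 11 tested members with the match the median difference was -0.11, and for the 13 with a promoter but no match it was -0.19. WT replicate 4 was the highest array for 7 of the 11 and for 5 of the 13. Their median deviations on that array were 0.36 and 0.21. For the 6 tested members with no promoter held, the median difference was -0.31. WT replicate 4 was the highest array for 5 of the 6, with a median deviation of 0.46. For the 9 with the GAS letters the median difference was -0.19. The Ddx58, Ifih1 and Ifi35 matches lie after the start and are not printed. The promoters of Psmb9, Tap1 and Irf7 held neither set of letters in this window.

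Beyond the members, 102 of 113 other genes of the pathway were tested, and 0 passed the threshold, against 0.256% of all probes. At an unadjusted p of 0.05 in limma, 8 of 102 passed, 5 lower and 3 higher, against 8.97% of all probes and 8.47% of named genes. Of the 102, 71 had differences below 0, against 52% of all probes and 48.2% of named genes, and the median was -0.08. The interferons themselves were dim. Of 6 interferon genes 3 were tested, with differences from -0.30 for Ifng to 0.91 for Ifna2 (adjusted p = 0.440). The receptors and kinases had a median of 0.03 over 9 genes. Ifnar1, a chain of the type I receptor, had a difference of -0.01 (adjusted p = 0.989), Ifngr2 one of -0.17 (adjusted p = 0.723) and Il28ra, of the lambda receptor, one of 0.33 (adjusted p = 0.4997).

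Among the STATs, IRFs and inhibitors, 13 were tested and 10 were below 0. Ptpn6, a phosphatase of blood cells, was lowest at -0.28 (adjusted p = 0.747), and Ciita, the master regulator of class II genes, highest at 0.16 (adjusted p = 0.957). Of the 12 tested sensing genes, Zbp1, a sensor of Z-form nucleic acid, had a difference of -0.51 (adjusted p = 0.802) and Ticam1, the TLR3 adaptor, 0.34 (adjusted p = 0.551).

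Other interferon-induced genes, 30 tested, had a median of -0.08 with 22 below 0. Isg15, the ubiquitin-like modifier, read -0.98, -1.11, -0.74 and -0.29 in WT and -1.03, -1.35, -1.32 and -0.99 in Glis3KO2. WT replicate 4 was highest here too, and the difference was -0.39 (SE 0.19, adjusted p = 0.583). Trim30 had the lowest difference, -0.54 (adjusted p = 0.460), and Cxcl10, a chemokine, the highest, 0.18 (adjusted p = 0.934). All 7 other GTPases tested were below 0, with a median of -0.21. The probe named Gbp4, given above for Gbp3, is 1 of the 7 by its name in the files, and the 6 without it were all below 0 with a median of -0.18. They ranged from -0.37 for Tgtp1 (adjusted p = 0.843) to -0.07 for Irgm2 (adjusted p = 0.909), and the median deviation of the 6 was 0.39 on WT replicate 4 and -0.38 on WT replicate 2.

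Class I presentation genes outside the members had a median of -0.11 over 18 tested. B2m, the light chain of class I, read 3.505, 2.53, 3.15 and 3.74 in WT and 3.08, 3.12, 3.28 and 2.95 in Glis3KO2. WT replicates 1 and 4 were highest and WT replicate 2 lowest of the 8, at a difference of -0.12 (SE 0.24, adjusted p = 0.923). H2-D1, a class I heavy chain, had a difference of -0.35 (adjusted p = 0.708) and Calr, the chaperone calreticulin, 0.34 (adjusted p = 0.686). The 10 class II genes had a median of 0.00, from -0.89 for H2-Ob (adjusted p = 0.739) to 0.54 for Cd74 (adjusted p = 0.828). Their median deviation was 1.11 on WT replicate 1 and 0.30 on WT replicate 4.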

How the data were processed

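Groups and replicate numbers came from the sample titles. The deposited values are linear spot intensity readings, made with Agilent Feature Extraction 9.5.3.1 per the file headers (9.5 per the submitters' processing notes), already background-subtracted and not scaled between arrays. Here, the 43379 non-control spots of an array were divided by their 75th percentile and taken to log2, 56 to 130 flagged spots per array were left out, and spots of a probe were averaged. Probes well above background on 4 or more of 8 arrays entered limma 3.58.1 (R 4.3.3; lmFit, eBayes, 2-sided, genotype as the sole term), with Benjamini-Hochberg adjustment over 33239 probes. Arrays had 76.1% to 86.5% of their probes above background, and the number of arrays limits the precision. Each adjusted p in the text is from limma. The code was tested on simulated data. Probe positions are those of mm7 per the file headers, and their exon or UTR status was not analysed here. Promoters are RefSeq's on GRCm38.p6.

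The members, the pathway lists, the marker lists and the rule for genes given array by array were chosen with earlier results of these data known. That rule took members without overlap, the 6 largest differences each way and a fixed set, and from other lists the extremes and a fixed set. Irf8, Ifit3 and Ifi44 were added after their values were seen. Alternatives covered background, scaling, filter, variance model, array weights, the replicate number, Xist, arrays left out and the probe rule. The rule also named 1 gene that is not reported here.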

Additional observations from a re-analysis of the deposited data

Results flagged for a closer look

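In 7 of the 154 gene-by-genotype groups of 4 arrays, 1 array stood far from the other 3 (gap over range above Dixon's 95% critical value). Chance gives about 1 in 20 groups, and among the members it was 4 of 60. Stat2 was at 0.18 on WT replicate 4, above the other WT arrays. Irf7 was at -2.51 on the same array, also above the others. Ifit2 was at -2.75 on WT replicate 3, below the others. Ifit1 was at -2.59 on Glis3KO2 replicate 4, above the others. Outside the members, Cxcl10 was at -2.05 and Cpa3, a mast cell protease, at 0.34 on Glis3KO2 replicate 3, both above the others. Ucn3, a marker of mature beta cells, was at -4.32 on Glis3KO2 replicate 4, below the others.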

How the results depend on the processing

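The count of members past the threshold was 0 under each of the 20 alternatives that gave it, with the smallest adjusted p in limma at 0.105, for Ddx58 without Glis3KO2 replicate 1. The median of the members stayed below 0, from -0.34 to -0.07 with 1 array left out and from -0.29 to -0.09 otherwise. With all probes of a gene averaged, Ddx58 was at 0.04, and between 0 and 5 members changed sign under an alternative. The count of probes past the threshold, 85, was 51 with no filter, 142 with trend and robust variances, 31 with Xist as a covariate and 11 without Glis3KO2 replicates 3 and 4. With 1 array left out it ran from 35 to 96, at 36, 35 and 36 without WT replicates 1, 3 and 4 and 39 without Glis3KO2 replicate 3 or 4. With the replicate number as a block it was 15, and 0 members passed. Same-numbered arrays correlated at 0.13, 0.09, 0.24 and -0.04 in their deviations from the group means, which does not pair the samples beyond their number and slide position, and arrays did not all correlate best with their own number. Leaving the Gbp4-named probe out of the other GTPases, chosen after seeing the data, moved their median from -0.21 to -0.18. The causes of these shifts were not tested. With 4 arrays per genotype the 95% intervals of the members ran from the narrowest, -0.29 to 0.19 for Trim25, to the widest, -1.12 to 0.55 for Mx1. Mx1, Oas1b and Oas3 were near background on some arrays.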
